A study of Mus musculus with 2 samples.

Results

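The tumour suppressor p53, encoded by *Trp53*, and 9 genes of its core circuit were followed in the RNA-seq values of DP thymocytes, which carry both CD4 and CD8 and make up most of the thymus. The 10 genes were chosen by name, as *Trp53*, the genes of its main inhibitors *Mdm2* and *Mdm4*, the cell cycle and growth arrest genes *Cdkn1a*, *Ccng1* and *Btg2*, and the stress response genes *Sesn1*, *Sesn2*, *Trp53inp1* and *Zmat3*. All 10 are among the 21041 genes of the deposited table, with values above 0 in both libraries. The study asked how loss of Cxxc1, a CpG-binding subunit of the Setd1 complex that places H3K4 trimethylation, changes gene expression at the DP stage. It has 2 mRNA libraries, 1 from WT and 1 from *Cxxc1*-deficient thymus. By the study's methods, the WT mice carry the floxed *Cxxc1* alleles without Cre, and the deficient mice are *Cxxc1* fl/fl h*CD2*-Cre, both a few weeks old, with the floxed allele backcrossed to C57BL/6. The h*CD2*-Cre transgene acts in early thymocytes and in other immune cells. The genotype label of the deficient sample reads *Cxxc1*+/-, which differs from its title (KO) and from the methods. How many mice were pooled per library is not given in the sources used here.

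p53 is a transcription factor that is kept scarce by MDM2, a ubiquitin ligase that marks it for degradation, and by MDM4, which blocks its transactivation domain. DNA damage and other stress release p53, which then binds response elements and activates genes of cell cycle arrest, repair, metabolism and death. *Mdm2* is itself such a target, so that p53 and its inhibitor form a feedback loop. In the thymus, p53 is best known for the death of DP cells after irradiation and for stopping immature cells that fail to rearrange the T-cell receptor beta gene.

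The *Trp53* value was not reduced without Cxxc1, whereas those of its inhibitors and its abundant targets were. The value of *Trp53* was 149 in WT and 165 in the deficient library, a ratio of *Cxxc1*-deficient to WT of 1.11. Of the 9 other genes, all had lower values as deposited, and 6 of them (*Trp53inp1*, *Mdm2*, *Sesn1*, *Mdm4*, *Ccng1* and *Btg2*) were at least 2-fold lower. Of all genes, 59.9% were lower and 17.4% at least 2-fold lower, and of the genes whose values averaged 100 or more, as those 6 did, 95.2% and 56.8%. *Zmat3* differed less, and *Cdkn1a* and *Sesn2* lay at the level of silent genes in both libraries. With 1 library per genotype there is no replicate check and no test could be run.

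The response elements of p53 consist of paired decamers, and the promoters in which a decamer was found are shown here for the genes on which the results turn. The sequences are the 250 bases before an annotated start of transcription, 5′ to 3′ on the gene's strand, from the RefSeq promoter table of build GRCm38.p6, with each match to the p53 decamer consensus in capitals. The consensus reads the same on both strands. *Trp53* is shown from chr11:69580109-69580358, *Mdm2* from chr10:117710759-117711008 on the minus strand, *Ccng1* from chr11:40755287-40755536 on the minus strand, and the upstream of 2 *Cdkn1a* promoters from chr17:29090729-29090978.
Trp53: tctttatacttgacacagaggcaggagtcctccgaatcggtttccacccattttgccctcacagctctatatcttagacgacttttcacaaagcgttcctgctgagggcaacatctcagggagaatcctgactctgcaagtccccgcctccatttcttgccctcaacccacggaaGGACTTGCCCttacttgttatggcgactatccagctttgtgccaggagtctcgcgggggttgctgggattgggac
Mdm2: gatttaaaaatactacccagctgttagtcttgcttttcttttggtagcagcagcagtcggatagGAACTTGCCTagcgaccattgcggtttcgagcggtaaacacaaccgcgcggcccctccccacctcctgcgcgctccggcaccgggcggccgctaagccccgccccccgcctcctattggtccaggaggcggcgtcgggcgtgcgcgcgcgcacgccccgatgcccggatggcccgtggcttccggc
Ccng1: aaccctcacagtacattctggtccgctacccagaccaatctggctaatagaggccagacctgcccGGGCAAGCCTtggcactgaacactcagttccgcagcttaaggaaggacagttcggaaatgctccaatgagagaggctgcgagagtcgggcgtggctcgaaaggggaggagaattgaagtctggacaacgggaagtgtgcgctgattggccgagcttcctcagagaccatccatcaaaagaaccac
Cdkn1a, upstream promoter: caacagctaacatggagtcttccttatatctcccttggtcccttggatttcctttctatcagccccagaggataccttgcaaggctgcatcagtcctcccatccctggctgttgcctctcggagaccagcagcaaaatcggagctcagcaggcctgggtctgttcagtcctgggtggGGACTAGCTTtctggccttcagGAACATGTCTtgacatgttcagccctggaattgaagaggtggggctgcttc
The table held 11 promoters for 8 of the 10 genes, and no entry for *Trp53inp1* and *Zmat3*. A decamer was found in 5 of the 11, the fifth being the second *Sesn1* promoter, against 7.13% of all 32851 promoters of the table. The upstream *Cdkn1a* promoter was the only one of the 11 with 2 exact matches, and 0.259% of all promoters have 2 or more. They begin at positions -73 and -51 from the start site, and whether they form a pair was not assessed. Those of the other promoters begin at -75 in *Trp53*, -186 in *Mdm2*, -185 in *Ccng1* and -173 in *Sesn1*. Only exact matches were sought. A decamer with a mismatch stays in lower case, even where it adjoins a marked one, as in *Ccng1* and *Cdkn1a*, so paired sites were not assessed. A match is a description of letters and not a binding site, and p53 sites outside these 250 bases, as in introns, were not searched.

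The promoters differed in CpG content, the dinucleotide that the CXXC domain of Cxxc1 recognises. The number of CG dinucleotides in the 250 bases was 29 in *Mdm2*, 27 in *Btg2*, 23 and 24 in the *Sesn1* promoters, 18 in *Sesn2*, 11 in *Ccng1* and 9 in *Trp53*. The *Mdm4* promoters had 5 and 4, and the *Cdkn1a* promoters had 2 upstream and 19 downstream. Over all promoters the median was 6, with quartiles of 2 and 16. Among the genes at least 2-fold lower, the counts thus ran from near that median in *Mdm4* to above the upper quartile in *Mdm2*, *Btg2* and *Sesn1*.

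The libraries differed in ways that bear on every ratio. The deposited values behave as reads per transcript length, rounded to whole numbers, and they sum to 1551994 in WT and 981677 in the deficient library with the same median of 36. Approximately 1404194 and 724484 reads on annotated genes lie behind them, so depth is low and was lower in the deficient library. All 10 DP markers of a list were at 884 or above in WT, and all were lower in the deficient library. These markers averaged 500 or more, a level at which 96.3% of all genes were lower. Their summed values were 39999 and 10969, of which *Rag1* gave 20778 and 5058. All 6 markers of the preceding DN stage had higher values, with sums of 230 and 436. Of all genes with a mean from 20 to 50, the level of these markers except *Il2ra*, 48.6% were higher. *Il2ra* was at 63 and 207 and *Cd44* at 35 and 58, while *Kit*, *Il7r*, *Hes1* and *Dtx1* were near background (28 to 37 in WT, 36 to 52 in the deficient library) with intervals that included 1. The B cell markers summed to 183 and 149, the erythroid markers to 131 and 157 with *Hba-a1* at 0 in both, the macrophage and dendritic cell markers to 236 and 235, and the thymic stroma markers to 142 and 129 with *Krt8* at 0 in the deficient library. Of 15 Y-linked genes, 0 were above 0 in WT and 7 in the deficient library. The part of stage, sex and depth in the ratios below was not tested. The targeted gene *Cxxc1* was at 91 in WT and 50 in deficient cells, a ratio of 0.549 (approximate 95% interval 0.338 to 0.877). The 50 is below 57, the 95th percentile of 1122 olfactory receptor genes in that library, so the ratio does not measure the transcript that remains. The paper found *Cxxc1* mRNA almost undetectable by qPCR in deficient DP cells, and the protein deleted by western blot. In bulk RNA, a lower value from fewer cells that express a gene and one from less RNA per cell cannot be told apart.

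**Figure D1:**
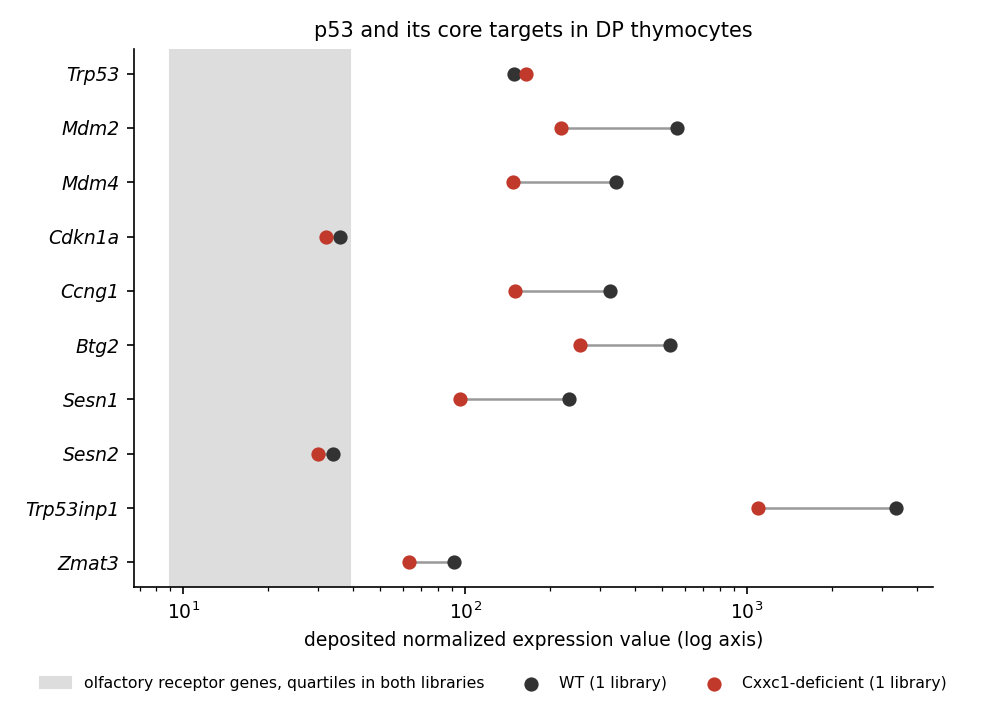
Deposited normalized expression value (log axis) of p53 and its core targets in 1 WT library (black) and 1 *Cxxc1*-deficient library (red). The grey area joins the quartile ranges of 1122 olfactory receptor genes in both libraries (9 to 35 in WT, 10 to 39 in the deficient library); *Cdkn1a* and *Sesn2* lie within it, *Cdkn1a* in WT just above the WT range, and *Trp53* is the gene whose red point is to the right.

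The ratio of a gene depended on its level in these libraries, so each gene was set beside all genes of its level. Of the 20125 genes above 0 in at least 1 library, 59.9% were lower and 17.4% at least 2-fold lower in *Cxxc1*-deficient cells, beside 9 and 6 of the 10 genes of the p53 circuit. Among the 2472 genes whose values averaged 100 or more, 95.2% were lower, 56.8% at least 2-fold lower and 4.69% higher. Of the 7 genes of the circuit at this level, 6 were lower, all of them at least 2-fold, and 1, *Trp53*, was higher. The median log2 ratio was -1.09 over the 10 genes, -1.21 over these 7 and -1.08 over all genes of this level. The 6 ratios thus lay close to the median of genes of their abundance, and that of *Trp53* did not. The counts depend on the scaling. With the libraries scaled to the same sum, 6 of the 10 genes were lower, 4 were higher and 0 were at least 2-fold lower, and the median log2 ratio of all genes moved by 0.66.

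**Figure D2:**
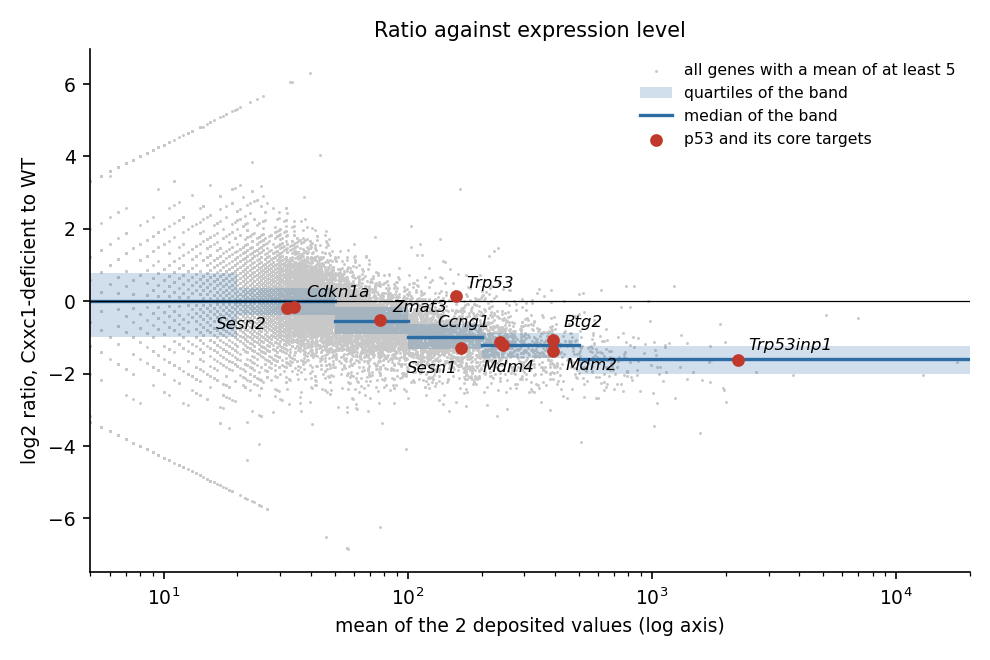
Log2 ratio of *Cxxc1*-deficient to WT against the mean of the 2 deposited values (log axis) for all genes with a mean of at least 5 (grey), with the median (blue line) and quartiles (blue area) of 6 bands of level and the 10 genes of the p53 circuit in red. The red points follow the blue medians downwards to *Trp53inp1*, apart from *Trp53*, which lies at 0.15 where its band has a median of -1.0.

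In mm9, the build of all gene positions below, *Trp53* spans bases 69393861 to 69405375 of chromosome 11 (plus strand). Its values of 149 and 165 rest on approximately 69 reads in WT and 65 in *Cxxc1*-deficient cells, taking the longest protein-coding transcript of 1867 bases. The ratio of 1.11 had an approximate 95% interval from 0.767 to 1.56 (Clopper-Pearson, counting error only). As deposited, a difference between the libraries was thus not detectable at this depth. With the shortest coding transcript of 1096 bases the interval ran from 0.688 to 1.76. Scaled to the same number of estimated reads on genes, the ratio was 1.85, above both intervals, so the reading depends on the scaling. Both intervals lay above 0.5, the median ratio of the 1605 genes with a mean from 100 to 200. In that band, 53 genes had a ratio at least as high as *Trp53*, itself included, and 1552 had a lower one. As *Trp53* was singled out after its value was seen, its distance from the band carries no weight as a test. In the order of values within each library, which no scaling alters, *Trp53* stood at position 2029 of 21041 in WT and at 544 in *Cxxc1*-deficient cells. A processed copy, *Trp53-ps*, is annotated in the genome but is not a row of the table, and reads that fit both places equally well would have been lost with the unique mapping. The same limit holds for *Mdm4*, whose annotated pseudogene *Mdm4-ps* is not a row of the table either.

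The genes of the inhibitors were both lower. *Mdm2*, at bases 117125944 to 117147814 of chromosome 10 (minus strand), was at 566 in WT against 219 in the deficient library. It was 2.58-fold lower (interval 2.13 to 3.13), on approximately 437 and 146 reads. *Mdm4*, at bases 134886422 to 134921943 of chromosome 1 (minus strand), had 342 and 148. It was 2.31-fold lower (interval 1.84 to 2.90). *Mdm2* is a direct p53 target and *Mdm4* is for the most part not. The intervals of their reductions overlapped, but whether the reductions differ was not tested, and p53 activity was not measured here. The quotient of *Mdm2* to *Mdm4*, values that are both per length, was 1.66 in WT and 1.48 in the deficient library. In their common band of 703 genes with a mean from 200 to 500, whose median log2 ratio was -1.22, *Mdm2* had -1.37 and *Mdm4* -1.21.

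Of the arrest genes, *Ccng1* and *Btg2* were abundant and lower, and *Cdkn1a* was near background. *Ccng1*, which encodes cyclin G1, a p53 target that recruits the phosphatase PP2A to MDM2, spans bases 40562054 to 40568813 of chromosome 11 (minus strand). It was at 326 in WT against 150 in the deficient library, 2.17-fold lower (interval 1.74 to 2.73). *Btg2*, which encodes an antiproliferative cofactor of mRNA deadenylation, spans bases 135971747 to 135975697 of chromosome 1 (minus strand). It was at 531 and 255, 2.08-fold lower (interval 1.71 to 2.53). The log2 ratios of -1.12 and -1.06 were above the median of -1.22 of their band, by 0.096 and 0.16. *Ccng1* and *Sesn1* also stand on a gene list of the study. The paper describes the listed genes as bound by Cxxc1 in ChIP-seq and changed at least 2-fold between these same libraries. Their reductions are thus no independent evidence, and the binding was not analysed here.

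*Cdkn1a* encodes p21, the inhibitor of cyclin-dependent kinases through which p53 stops the cell cycle, and spans bases 29227924 to 29237667 of chromosome 17 (plus strand). The libraries gave 36 (WT) and 32 (deficient), on approximately 17 and 13 reads. These values are at the level of genes that thymocytes do not use. The 1122 olfactory receptor genes had a median of 22 in WT and 24 in deficient cells, and 24.0% of them in WT and 34.4% in deficient cells were at or above *Cdkn1a*. The ratio of 0.889 had an interval from 0.396 to 1.94, so that no difference was detectable at this depth. With the shortest coding transcript of 748 bases, the reads were approximately 7 and 5 and the interval ran from 0.207 to 3.03.

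The sestrins differed in level. *Sesn1* and *Sesn2* encode stress proteins that restrain mTORC1 and oxidative damage. *Sesn1*, at bases 41530380 to 41628230 of chromosome 10 (plus strand), was at 233 in WT against 96 in the deficient library, 2.43-fold lower (interval 1.81 to 3.26). Its log2 ratio of -1.28 lay below the median of -1.0 of its band by 0.28, the largest distance below a band median among the 10 genes. The interval of its ratio, 0.307 to 0.553, included the median ratio of 0.5 of that band, so the distance was within counting error. *Sesn2*, at bases 132047947 to 132066416 of chromosome 4 (minus strand), had 34 and 30 and was at background, with 29.3% of the olfactory receptor genes in WT and 41.3% in deficient cells at or above it. Its ratio of 0.882 had an interval from 0.482 to 1.59.

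*Trp53inp1* was the most abundant gene of the circuit in both libraries. It encodes a nuclear protein that promotes p53-dependent death and autophagy, and spans bases 11083578 to 11101526 of chromosome 4 (plus strand). The libraries gave 3385 (WT) and 1093 (deficient), on approximately 4511 and 1256 reads. It was 3.10-fold lower, and its interval of 2.91 to 3.30 was the narrowest of the 10 genes relative to its size. It held position 8 of all genes in WT and 10 in deficient cells, and its log2 ratio of -1.63 was beside the median of -1.61 over the 164 genes averaging 500 or more. *Zmat3*, which encodes an RNA-binding zinc finger protein that acts on splicing and mRNA stability, spans bases 32233718 to 32264600 of chromosome 3 (minus strand). Its value was 91 and 63, a ratio of 0.692 (interval 0.536 to 0.884), and its log2 ratio of -0.53 equalled the median of -0.53 over 3657 genes with a mean from 50 to 100.

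*Trp53* moved up in the order of the levels. In WT, the values per length ran from *Trp53inp1* through *Mdm2*, *Btg2*, *Mdm4*, *Ccng1*, *Sesn1*, *Trp53* and *Zmat3* to *Cdkn1a* and *Sesn2*. In WT the interval of the quotient of neighbours excluded 1 except for *Mdm2* and *Btg2*, *Mdm4* and *Ccng1*, and *Cdkn1a* and *Sesn2*. In WT, *Sesn1* was 1.56 times as high as *Trp53* (interval 1.17 to 2.08). In the deficient library *Trp53* stood between *Mdm2* and *Ccng1*, but the neighbours from *Btg2* through *Mdm2*, *Trp53* and *Ccng1* to *Mdm4* did not differ beyond counting error.

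The change of each gene relative to *Trp53* does not depend on the scaling of the libraries, since any factor cancels. For *Mdm2*, the value was 3.80 times that of *Trp53* in WT and 1.33 times in *Cxxc1*-deficient cells, a quotient of 0.349 (interval 0.237 to 0.533, from the conditional odds ratio of the approximate reads). For *Trp53inp1* it was 22.7 times in WT and 6.62 times in deficient cells, a quotient of 0.292 with an interval from 0.206 to 0.424. Relative to *Trp53*, both were thus lower by more than counting error. The quotients of *Sesn1*, *Mdm4*, *Ccng1* and *Btg2* ran from 0.372 to 0.434, with upper bounds from 0.604 to 0.663. *Zmat3* had 0.625, with an interval from 0.407 to 0.979. The quotients of *Cdkn1a* and *Sesn2*, 0.803 and 0.797, had intervals that included 1. As *Trp53* was singled out after its value was seen, these intervals describe the 2 libraries and carry no weight as a test.

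**Figure D3:**
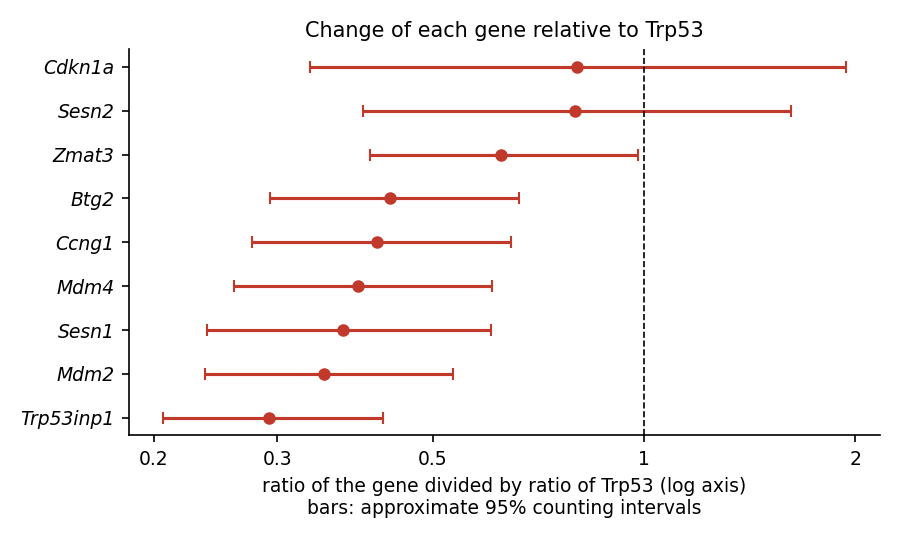
Ratio of *Cxxc1*-deficient to WT of each gene divided by that of *Trp53* (log axis), with approximate 95% counting intervals as bars and 1 library per genotype. The intervals of 7 genes lie below 1 (dashed line), from *Trp53inp1* at 0.292 to *Zmat3* at 0.625, and those of *Sesn2* and *Cdkn1a* cross it.

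The directions as deposited were not stable for the low genes. *Zmat3* had a ratio of 0.692 as deposited and 1.09 with the libraries scaled to the same sum, and *Cdkn1a* and *Sesn2* went from 0.889 and 0.882 to 1.41 and 1.39. The 6 abundant genes stayed below 1 under each of the 6 scalings, the highest being *Btg2* at 0.958, and *Trp53* stayed above 1, from 1.11 as deposited to 2.21. With the same number of estimated reads on genes, *Trp53* had 1.85, *Mdm2* 0.647 and *Trp53inp1* 0.540.

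**Figure D4:**
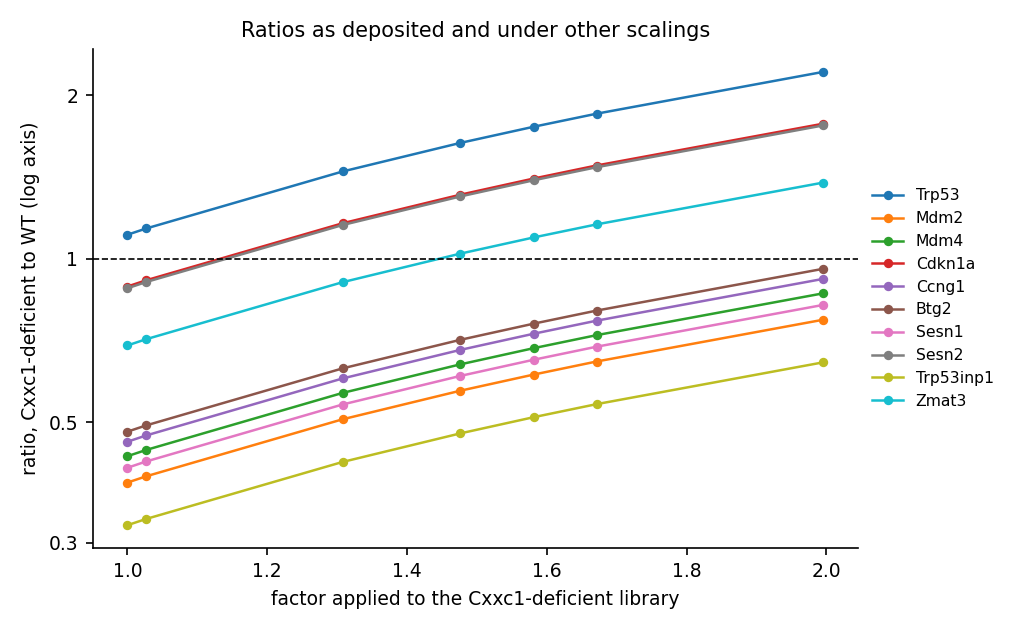
Ratio of *Cxxc1*-deficient to WT (log axis) of the 10 genes against the factor applied to the deficient library, from 1 as deposited to 2.0 with equal medians for genes averaging 100 or more. *Trp53* is above 1 (dashed line) throughout, *Cdkn1a*, *Sesn2* and *Zmat3* cross it, and the other 6 genes stay below.

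A wider set of 67 genes of the p53 network, in 5 lists, was followed in the same way, and *Tigar* of these was not analysed here. Of the 66 genes, 49 were lower, 15 higher and 2 equal, and 13 were at least 2-fold lower (beside 17.4% of all genes) and 2 at least 2-fold higher. The 14 of them with a mean of at least 100 were all lower, 8 at least 2-fold, with a median log2 ratio of -1.13 beside -1.08 over all genes of this level. The 52 genes with a lower mean had a median of -0.32. The shares of all genes, here and beside each list below, are not matched for level. Of all genes with a mean from 20 to 50, 47.7% were lower. The share was 82.6% from 50 to 100 and 94.7% from 100 to 200.

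The regulators of p53 included abundant genes with small differences. Of 18 genes, 16 were lower, 2 of them at least 2-fold (59.9% and 17.4% of all genes, not matched for level), with a median log2 ratio of -0.53. *Ep300*, which encodes the acetyltransferase p300, was at 270 in WT against 249 in the deficient library, a ratio of 0.922 (interval 0.815 to 1.04). *Crebbp*, which encodes its relative CBP, had 398 and 308, a ratio of 0.774 (interval 0.689 to 0.869). *Setd7*, a lysine methyltransferase gene, had 353 and 249, a ratio of 0.705. The log2 ratios of these 3 genes, -0.12, -0.37 and -0.50, were above the median of -1.22 of their band. *Usp7*, the gene of the deubiquitinase that stabilises MDM2 and p53, had 438 and 188, a ratio of 0.429. The deacetylase gene *Sirt1* had 133 and 75, *Trp53bp2*, which encodes a p53-binding protein of the ASPP family, had 165 and 95, and the kinase gene *Hipk2*, the highest ratio of the list, had 34 and 42.

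The apoptosis targets differed among themselves. Of 14 genes, 5 were lower, beside 59.9% of all genes, 8 were higher and 1 was equal. The median log2 ratio was 0.20 (all genes -0.20), and 13 of the 14 genes had a mean under 100, most of them under 50. Of all genes with a mean from 20 to 50, 47.7% were lower, and their median log2 ratio was 0.0. *Fas*, the gene of a death receptor and the 1 gene above that mean, was at 296 in WT against 79 in the deficient library, a ratio of 0.267 (interval 0.166 to 0.418). *Bax*, the gene of a pore-forming effector of mitochondrial death, had 103 and 16, a ratio of 0.155 (interval 0.0437 to 0.493) on approximately 27 and 4 reads. The gene with the highest ratio among those above 0 in both libraries was the death receptor gene *Tnfrsf10b*, with 8 and 19 on approximately 6 and 13 reads and an interval from 0.891 to 8.06. *Siva1* was listed at 0 in WT and at 16 in deficient cells. *Bbc3* and *Pmaip1*, the genes of PUMA and NOXA, BH3-only proteins that promote cell death, had 25 and 19, and 31 and 53. Both are named for this role, after their values were seen, and lay at or near the background level.

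Of 13 arrest and repair targets, 11 were lower, 4 of them at least 2-fold, beside 59.9% and 17.4% of all genes, and the median log2 ratio was -0.89. Part of these targets had a mean from 50 to 100 or from 100 to 200, where 82.6% and 94.7% of all genes were lower. Whether the list differed from genes of its level was not tested. *Gadd45a*, a gene of the DNA damage response, was at 262 in WT against 73 in the deficient library, a ratio of 0.279 (interval 0.160 to 0.465). *Ppm1d*, the gene of the phosphatase WIP1 that ends the p53 response, had 142 and 78, a ratio of 0.549. *Sfn*, the gene of 14-3-3 sigma, had the highest ratio with 8 and 15, on approximately 3 and 5 reads. Of the 7 measured metabolic targets, 5 were lower (59.9% of all genes), 1 higher and 1 equal, with a median log2 ratio of -0.37. *Ddit4*, the gene of the mTORC1 inhibitor REDD1, had 303 and 73, a ratio of 0.241 with an upper bound of 0.367. It is also induced by glucocorticoids. *Gls2*, a glutaminase gene, had 24 and 34.

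Of 14 paralogs of the circuit, 12 were lower and 4 at least 2-fold lower, with a median log2 ratio of -0.35. Of all genes, not matched for level, 59.9% and 17.4% were. The 4 that averaged 100 or more were each lower, as were 95.2% of all genes of this level. *Ccng2*, the relative of *Ccng1* that responds to FOXO factors, was at 629 in WT against 189 in the deficient library, 3.33-fold lower. *Btg1* had 760 and 371, and its quotient to *Btg2* was 1.43 in WT and 1.45 in deficient cells. *Cdkn1b*, which encodes p27, had 418 and 119, a ratio of 0.285 (interval 0.230 to 0.349), and was above the near-background *Cdkn1a* in both libraries. *Zmat2* had 158 and 60. The p53 relatives *Trp63* and *Trp73*, named after their values were seen, were at 50 and 48, and at 30 and 29. *Zmat5*, with 36 and 42, had the highest ratio of this list.

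**Figure D5:**
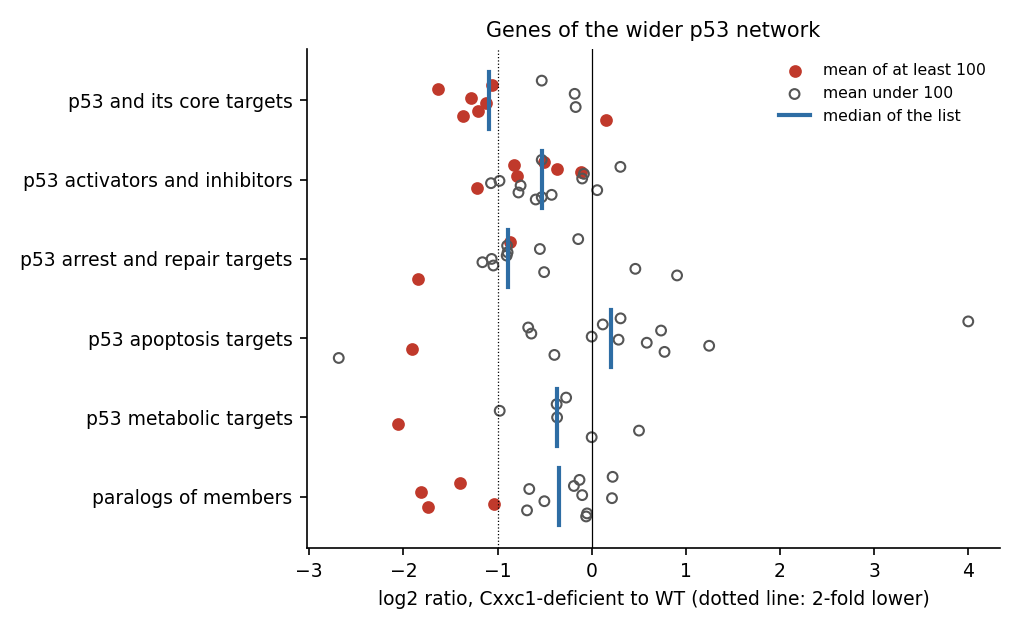
Log2 ratio of *Cxxc1*-deficient to WT of the 10 genes of the circuit and of 5 further lists, with genes of a mean of at least 100 as filled red points, lower genes as open circles and the median of each list as a blue bar. The filled points lie to the left of 0 in every list, except for *Trp53* at 0.15 in the top row, and of the 52 open circles in the 5 further lists 35 are to the left of 0, 15 to the right and 2 at 0.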

How the data were processed

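mRNA was sequenced from DP thymocytes in 2 libraries, grouped by their titles. The authors obtained reads of 50 bases with CASAVA 1.8.2, mapped them to mm9 (the submitters' processing notes name Bowtie 1.0.1), kept unique alignments and used Partek. The deposited values are a score: each gene has 1 whole number per library, normalized by the authors. The formula and the gene annotation are not given in the sources used here.

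The number of reads behind a value was estimated from the deposited table. If a value is reads times a constant divided by transcript length, short genes of 1 annotated length (60 to 1000 bases, by GENCODE vM1, whose genome NCBIM37 is mm9) must give whole reads. The constant was 4055 in WT, where 1166 of 1487 genes gave whole reads within rounding against 295 by rounding alone, and 4704 in *Cxxc1*-deficient cells, with 1137 of 1468 against 251. The search was tested on simulated data. Reads of members assume the longest protein-coding transcript and are approximate, and intervals cover counting error only.

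Ratios were taken between deposited values raised to at least 1. No test was run, with 1 library per genotype. The members and lists were chosen with earlier results of these data known. Named genes were the 10 members, genes of the further lists with a mean of at least 100, and the highest and lowest ratio of each list. Exons of the 10 members overlap those of 0 other annotated genes. The kit is not stated to keep strand. Alternatives were scalings, background subtraction, pseudocounts, thresholds and a filter on low genes. Scripts ran in Python 3.11.15 with scipy 1.17.1, pandas 2.3.3, numpy 2.4.6 and, for plots, matplotlib 3.10.9.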

Additional observations from a re-analysis of the deposited data

How the results depend on the processing

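Counts and medians are given as deposited and then with the same 75th percentile, the same sum after leaving out the 100 most abundant genes, the same median of genes averaging 100 or more, the same sum, and the same number of estimated reads, the last 2 chosen after seeing the data. The number of the 10 genes at least 2-fold lower was 6, then 1, 1, 0, 0 and 0, and their median log2 ratio was -1.09, then -0.70, -0.53, -0.092, -0.43 and -0.35. Of the 66 network genes, 13 were at least 2-fold lower, then 7, 6, 2, 6 and 5. These changes follow from the factors of 1.31, 1.48, 2.0, 1.58 and 1.67 on the deficient library. Subtracting the olfactory receptor median gave a median log2 ratio of -1.21 and 35 network genes, with *Sesn2* at 0.5 and *Cdkn1a* at 0.571. At 3-fold, 1 of the 10 and 6 network genes were lower, and at 1.5-fold 28 network genes. The ratio of *Zmat3* reversed to 1.02, 1.38, 1.09 and 1.16 in the last 4 scalings, and those of *Sesn2* and *Cdkn1a* were above 1 in all 5, from 1.15 to 1.76 and from 1.16 to 1.77, though beyond their counting intervals as deposited only for *Sesn2* at 1.76. For *Trp53* the ratio was 1.63, 2.21, 1.75 and 1.85 in the last 4 scalings, beyond its counting interval of 0.767 to 1.56 as deposited. The number of lower genes among the 10 ran from 6 to 9. Scaling to the same median of all genes above 0, pseudocounts of 1 and 10 and the filter on low genes kept the counts within 1.5 times. No paired analysis was possible because there is a single library of each genotype. Depth limits the lowest genes, with approximately 17 and 13 reads for *Cdkn1a*.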
